A study of Bos taurus with 6 samples.

Results

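Weak, isolated peaks of H3K4me3 that lay apart from H3K27me3 were examined in bovine embryonic stem cells. A site was taken when a line A summit on autosomes 1 to 29 had a partner in line B at most 1 kb away, when both summits scored below the 25th percentile of the autosomal summits of their own list, when no other H3K4me3 summit of the same list lay within 5 kb of either, and when no H3K27me3 summit of either line lay within 5 kb. The rule left 733 sites, of 19966 autosomal H3K4me3 summits of line A and of 18712 with a partner in line B (3.92%). They are called weak solitary sites below. The cells are pluripotent cells derived from blastocysts (BL-derived ESC in the labels), studied as 2 independent lines, A and B, both at passage 12 and both untreated beyond their culture. Both lines grew on mouse embryonic fibroblasts, in medium with human FGF2 and IWR1, an inhibitor of WNT signalling, and the fibroblasts were removed with magnetic beads before chromatin was made. With a single library for each mark and line (n = 2 libraries of a mark), an exact test of a difference between groups of sites over the lines cannot go below p = 0.5 (two-sided), and none was run. The values of both lines are given side by side. Intervals on shares of sites are 95% Wilson intervals and cover counting error only.

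H3K4me3 is written by the SET1 and MLL methyltransferase complexes, mostly around transcription start sites and CpG islands, and its level usually goes with promoter activity. Weak H3K4me3 is known from promoters of low activity, alternative promoters and some enhancers. H3K27me3 is written by the Polycomb repressive complex PRC2, and in pluripotent cells many developmental genes carry both marks. Which genes lie at these sites, and their sequences, were not analysed here, since the deposited positions are in UMD3.1 and no annotation of that assembly was used. For the same reason the cell type was not checked against its marker genes.

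Judged by its range, the deposited score of a peak was taken to be −log10 of either a p-value or a q-value, and weak refers to that score and not to a read count. The cut-off was 15.4 for line A and 21.3 for line B. In line A the weak solitary sites scored from 2.09 to 15.3, with a median of 7.59 and quartiles of 5.35 and 10.8. In line B they scored from 2.38 to 21.3, with a median of 11.9 and quartiles of 8.31 and 16.0. For comparison, the median autosomal summit scored 38.6 and 59.2 in these lists. These scores chose the sites, so they describe them and are no result. The sites just inside the cut-off of line A, on chromosome 23 at 17859239 and chromosome 19 at 39065075, scored 15.34 and 15.30 there, and those just outside, on chromosome 4 at 99377768 and chromosome 24 at 57891351, both scored 15.40. In line B the sites just inside, on chromosome 11 at 46903733 and chromosome 10 at 62418076, both scored 21.30, and those just outside, on chromosome 5 at 27842790 and chromosome 12 at 73890107, both scored 21.32.

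Many of the weak solitary sites shared an exact score, as sites of high score also did. In line A the 733 sites had 322 distinct scores, and 541 sites (73.8%) shared their exact score with another of the sites. The commonest, 6.40, occurred 22 times. In line B there were 367 distinct scores, and 494 sites (67.4%) shared theirs. Of 2744 strong solitary sites, chosen by the same rule but at or above the 75th percentile in both lines, 77.6% and 66.7% shared a score in lines A and B. The groups differ in size, so these shares are not like for like.

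**Figure D1:**
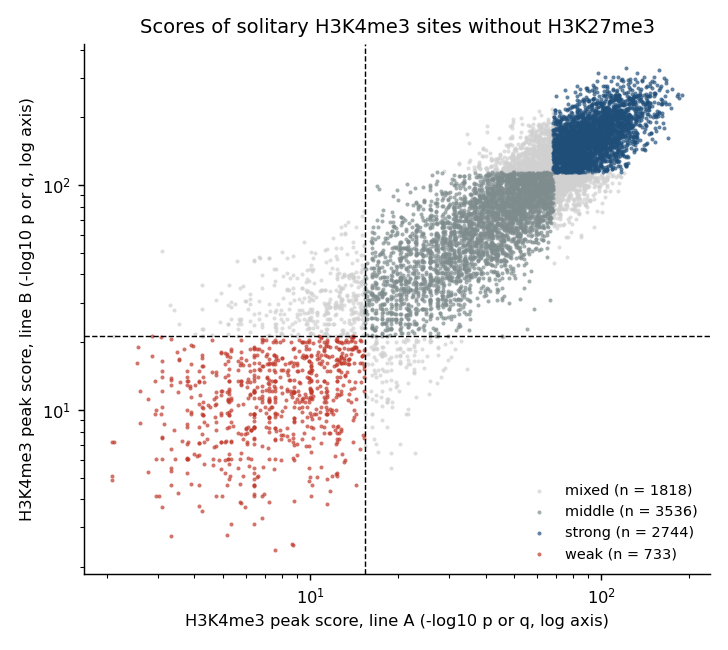
Peak scores of lines A and B (log axes) at the 8831 solitary H3K4me3 sites without H3K27me3, 1 point per site, with dashed lines at the cut-offs of 15.4 and 21.3. The 733 weak solitary sites (red) fill the lower left corner, and 3536 middle and 2744 strong sites are shown in dark grey and blue; 1818 sites whose lines fell in different classes are in light grey.

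Over the 733 sites the scores of lines A and B had a Spearman rho of 0.297, against 0.899 over all 8831 solitary sites without H3K27me3, a span that the score limits narrow by construction. It was 0.241 both at weak solitary sites with H3K27me3 and at weak sites that were not solitary, 0.684 at middle and 0.490 at strong solitary sites. The sites share 1 library per line, so these values are descriptions. Of the 733, 111 (15.1%) fell below the 10th percentile in both lines and 355 (48.4%) in neither, while 191 did so only by the list of line A and 76 only by that of line B. The percentiles of the lines lay within 5 points of each other at 348 sites (47.5%). The rule keeps both percentiles below its cut-off, so part of this closeness is set by the selection. The share was not counted for other groups, so it is not read as agreement between the lines. The weakest site by mean percentile was on chromosome 9 at 105136974, with scores of 3.33 and 2.76. The next 4 were on chromosome 11 at 46360260 (3.08 and 3.69), chromosome 15 at 47329959 (2.95 and 4.14), chromosome 8 at 27695765 (2.09 and 4.86) and chromosome 10 at 35840776 (3.02 and 4.15). At the other end, the site on chromosome 5 at 48279052 scored 14.9 and 20.4, and that on chromosome 24 at 47134720 scored 14.9 and 20.1. The other 3 of the 5 highest were on chromosome 11 at 46903507 (14.1 and 21.3), chromosome 19 at 41061677 (14.1 and 21.2) and chromosome 3 at 34280443 (14.0 and 21.0).

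A weak partner in the other line was present for part of the candidates. By its own lists, line A held 1527 autosomal summits that were weak, solitary and free of H3K27me3. Of these, 733 (48.0%, interval 45.5% to 50.5%) were weak solitary sites by the full rule, 429 (28.1%) had a partner at or above the cut-off of line B, and 297 (19.4%, interval 17.5% to 21.5%) had no line B summit within 1 kb. The other 68 (4.45%) had a weak partner but failed on isolation or H3K27me3 in line B. Line B held 1992 such summits, of which 733 (36.8%) met the full rule, 168 (8.43%) had a partner at or above the cut-off of line A and 171 (8.58%) had a weak partner but failed on the other conditions there. As many as 920 (46.2%, interval 44.0% to 48.4%) had no summit of line A within 1 kb. The unmatched share was thus larger in line B, whose list is also longer. The lists hold no read counts, and the part of depth in this was not tested. In neither line did a candidate have a partner at or above the 75th percentile of the other line (0 of 1527, upper bound 0.251%, and 0 of 1992, upper bound 0.192%).

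Among summits that were weak in both lines, isolation and the absence of H3K27me3 each removed a large part. Of 2382 such shared summits 1174 (49.3%, interval 47.3% to 51.3%) were solitary. Among shared summits between the 25th and 75th percentile in both lines 66.6% were solitary, and among those at or above the 75th percentile 74.3%. Of the 1174, 441 (37.6%, interval 34.8% to 40.4%) had H3K27me3 within 5 kb. That share was 33.9% for middle and 8.10% for strong solitary sites. The 733 sites are therefore the part of the weak solitary summits, 62.4%, at which no H3K27me3 was called in either line.

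The lines placed their summits less precisely at weak solitary sites than at strong ones. The median distance between the summits of lines A and B was 70 bases (95% interval of the median over sites 64 to 76), against 48.5 bases (46 to 51) at the 3536 middle and 43 bases (41 to 45) at the strong solitary sites. At 467 of the 733 sites (63.7%, interval 60.2% to 67.1%) the summits lay within 100 bases of each other. Over all 8831 solitary sites without H3K27me3 74.9% did, and among strong ones 79.2% (77.6% to 80.7%). The intervals of weak and strong sites do not overlap, and sites of 1 pair of libraries are not replicates. Summits at the same base in both lines were rare in each group. They occurred at 1 of the 733 weak, 24 of the 3536 middle and 19 of the 2744 strong sites, and at 53 of all 8831. Long distances were rare: 16 sites (2.18%) lay over 500 bases apart, against 3.28% of middle and 1.79% of strong sites, and the largest distance was 813 bases. Neither direction prevailed, with the summit of line B at the lower coordinate at 377 sites and at the higher at 355.

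Across the whole class of solitary sites, the distance was longer at the lowest scores and about level above them. When all 8831 were ordered by their mean percentile and divided into 10 bins of 883 or 884 sites, the median distance was 70 bases in the lowest bin, 59 in the next and 53 in the one after. It was 42 to 47 bases in the other 7. Within the weak solitary sites it was 84 bases for the weakest 245 sites and 64 for the strongest 244, with 58.8% (interval 52.5% to 64.8%) and 67.2% (61.1% to 72.8%) within 100 bases. Weak sites of other kinds also had longer distances than strong ones. The 441 weak solitary sites with H3K27me3 had a median distance of 86 bases (75 to 101), and 504 weak sites without H3K27me3 that were not solitary 66 bases (59 to 78).

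**Figure D2:**
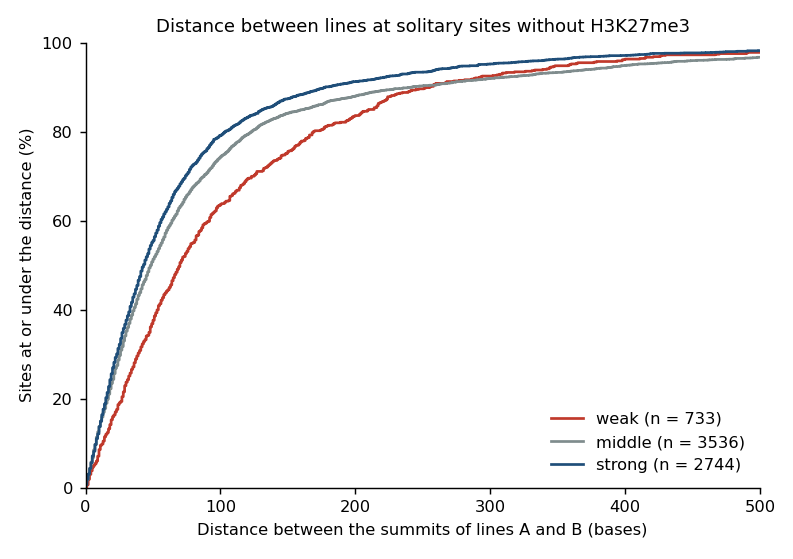
Cumulative percent of sites by the distance in bases between the summits of lines A and B, for 733 weak, 3536 middle and 2744 strong solitary H3K4me3 sites without H3K27me3. At 100 bases the weak sites have reached 63.7% and the strong sites 79.2%, and at 500 bases both are near 98%, at 97.8% and 98.2%.

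Beyond the 5 kb that the rule cleared, the median distance to other H3K4me3 peaks and the share within 50 kb were about alike at weak and stronger solitary sites. Within 10 kb the weak sites had another summit more often than the strong ones. Distances were measured to the nearest other summit of the same list. In lines A and B the medians were 29.1 and 27.7 kb. They were 29.2 and 28.1 kb at middle sites and 31.5 and 30.5 kb at strong ones. Another H3K4me3 summit lay within 50 kb of 470 weak solitary sites in line A (64.1%, interval 60.6% to 67.5%) and of 483 in line B (65.9%, 62.4% to 69.2%). Over all solitary sites without H3K27me3 these shares were 65.4% and 66.3%, so the weak sites lay near the background. Within 10 kb, 17.9% and 18.1% of the weak sites had another summit, 15.2% and 15.9% of all solitary sites, 16.5% and 17.2% of middle and 13.0% and 14.1% of strong ones, and the intervals of weak and middle sites overlapped. Those of weak sites (15.27% to 20.81% and 15.52% to 21.10%) and strong sites (11.84% to 14.36% and 12.85% to 15.46%) did not overlap in either line. At 629 of 733 sites (85.8%, interval 83.1% to 88.2%) the nearest other summits of lines A and B lay within 1 kb of each other, near the 88.7% over all solitary sites.

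The neighbours of weak solitary sites were somewhat weaker than those of strong sites. The median score of the nearest other H3K4me3 summit was 38.2 (line A) and 57.4 (line B), at middle sites 44.2 and 71.4, and at strong solitary sites 50.3 and 83.7. It was below the 25th percentile of its list at 172 weak sites in line A (23.5%, interval 20.5% to 26.7%) and at 165 in line B (22.5%, 19.6% to 25.7%). The background over all solitary sites was 18.6% and 17.9%, and at strong sites the shares were 16.4% and 15.8%. At middle sites the shares were 19.4% and 18.4%. They were higher at weak solitary sites with H3K27me3 (36.1% and 37.4%) and over all shared sites, solitary or not (26.5% and 25.3%). The neighbour was at or above the 75th percentile at 23.7% of the weak sites by line A and 22.6% by line B, compared with 29.3% and 30.7% over all solitary sites. For 101 sites (13.8%) the nearest other summit of line A was itself a strong solitary site, and for 31 (4.23%) it was another weak solitary site. Of all 19966 autosomal summits of line A, 2744 were strong solitary sites and 733 (3.67%) weak solitary ones. Neither share is therefore read as a trait of the weak sites.

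Some of the sites were remote. At 125 of 733 (17.1%, interval 14.5% to 19.9%) no other H3K4me3 summit lay within 100 kb in either line, against 15.6% over all solitary sites and 13.7% (12.5% to 15.1%) of the strong ones. At 110 (15.0%) there was no H3K27me3 summit within 100 kb either, as at 13.6% of all solitary sites. Both shares are near the background. The most isolated site, on chromosome 20 at 53409935, scored 6.40 (line A) and 9.61 (line B). Its nearest other H3K4me3 summits lay 2612 kb and 2270 kb away. Its summits in the lines were 78 bases apart. A second site of that chromosome, at 50445056, scored 5.77 and 18.1, with its nearest H3K4me3 neighbours 1570 and 695 kb away. The site on chromosome 27 at 1305796 scored 10.5 and 17.6 and had its nearest H3K4me3 neighbour 1017 kb away in both lines, while a high-scoring H3K27me3 summit (234 and 224 in lines A and B) lay 63.8 kb from it. The other 2 of the 5 most isolated were on chromosome 18 at 31980359 (4.14 and 14.8), 972 kb from its neighbour in both lines, and on chromosome 21 at 64793236 (7.23 and 10.9), with neighbours at 874 and 1112 kb. At the chromosome 27 and chromosome 21 sites the lines differed by 10 and 9 bases. At the chromosome 18 site they differed by 245 bases, and at 50445056 on chromosome 20 by 223.

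An H3K27me3 summit was found near weak solitary sites more often than near strong ones, in both lines. Distances were taken from the nearer summit of the pair. The median distance to an H3K27me3 summit was 91.7 and 127 kb in the respective lists of lines A and B. It was 101 and 148 kb at middle and 105 and 141 kb at strong solitary sites. An H3K27me3 summit lay within 50 kb of 259 weak sites in line A (35.3%, interval 32.0% to 38.9%) and of 214 in line B (29.2%, 26.0% to 32.6%). The background over all solitary sites without H3K27me3 was 30.2% and 22.6%. At strong sites the shares were 27.1% (25.4% to 28.8%) and 20.1% (18.7% to 21.7%), and the intervals of weak and strong sites did not overlap in either line. At middle sites the shares were 30.7% (29.2% to 32.2%) and 22.8% (21.5% to 24.2%), and the interval overlapped that of the weak sites in line A only. Weak sites without H3K27me3 that were not solitary had shares of 36.7% and 25.8%, so the raised share was not particular to solitary sites. The gap was widest in proportion just past the 5 kb limit. Within 10 kb, 59 weak sites in line A (8.05%, interval 6.29% to 10.2%) and 41 in line B (5.59%, 4.15% to 7.50%) had an H3K27me3 summit. Over all solitary sites without H3K27me3 4.56% and 3.03% had one, and among strong sites 3.64% (3.01% to 4.41%) and 2.59% (2.06% to 3.25%). At 204 weak sites (27.8%) both lines had H3K27me3 within 50 kb, at 55 only line A did, at 10 only line B, and at 464 (63.3%) no list did. Both lines had it at 21.1% of all solitary sites without H3K27me3 and at 18.7% of the strong ones.

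Inside the weak class the share with H3K27me3 nearby was not higher at the lowest scores. Within the weak solitary sites, the weakest 245 had H3K27me3 within 50 kb at 30.6% (25.2% to 36.6%) in line A and 26.5% (21.4% to 32.4%) in line B, and the strongest 244 at 38.9% (33.0% to 45.2%) and 31.6% (26.1% to 37.6%), with overlapping intervals. Over all solitary sites without H3K27me3 the shares were 30.2% and 22.6%, inside the intervals of the weakest 245. Other H3K4me3 summits were also farther from the weakest 245, at a median of 37.3 and 33.4 kb, than from the strongest, at 24.6 and 23.2 kb. The neighbouring H3K27me3 summits were themselves weak: the median score of the nearest was 7.26 (line A) and 8.13 (line B), close to that at strong solitary sites (7.26 and 8.34), while the autosomal medians of those lists were 11.4 and 13.2.

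The weak solitary sites nearest to H3K27me3 lay just past the limit. On chromosome 14 at 2328291 a site of scores 3.14 and 8.69 had H3K27me3 summits 5.07 and 7.31 kb away in lines A and B. On chromosome 21 at 70897646 (13.6 and 11.8) they were 5.08 and 6.54 kb away, and on chromosome 12 at 90783809 (7.55 and 14.7) 5.26 and 5.93 kb. The sites on chromosome 5 at 113466389 and chromosome 7 at 18459675 had H3K27me3 at 5.08 and 5.21 kb in line A, and at 28.2 and 70.9 kb in line B. The 5 sites farthest from H3K27me3 in any line were on chromosome 28 at 21855898 (2838 kb), chromosome 5 at 18671488 (2753 kb), the pair on chromosome 20 at 53409935 (2343 kb) and 50445056 (1885 kb), and chromosome 6 at 66316649 (1566 kb). The site on chromosome 28 scored 7.59 and 9.72, and its summits in the lines were 22 bases apart. At the others, in the order given, the summits of the lines were 490, 78, 223 and 48 bases apart.

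**Figure D3:**
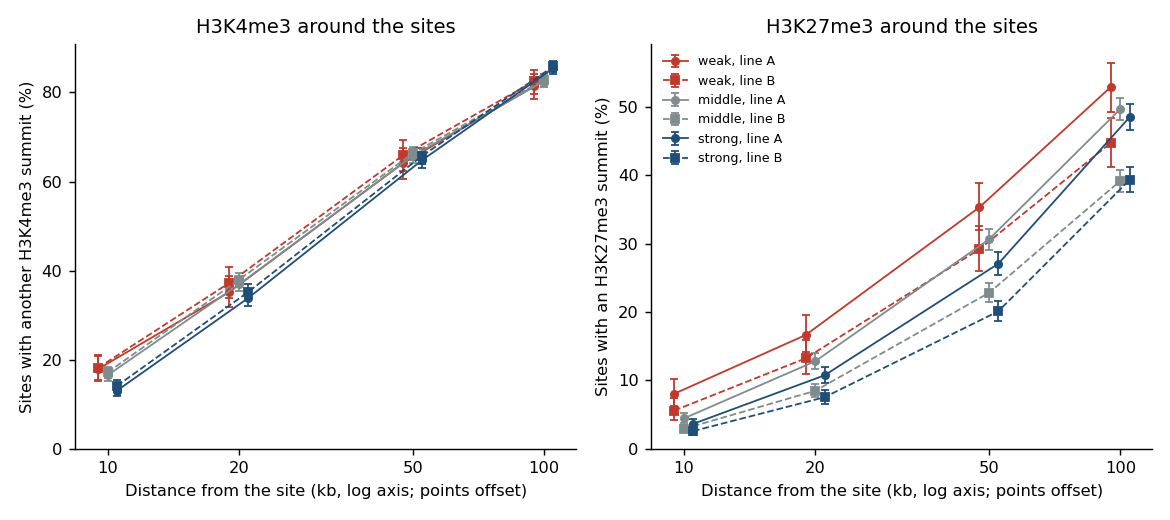
Percent of weak, middle and strong solitary sites with another H3K4me3 summit (left) or an H3K27me3 summit (right) within 10, 20, 50 and 100 kb, for line A (circles) and line B (squares), with 95% Wilson intervals; points are set slightly apart along the log axis. For H3K4me3 the groups lie close together at 50 kb, at 64.1% to 66.3%, while at 10 kb the weak sites are above the strong ones in both lines. For H3K27me3 the weak sites are above the strong ones in both lines at each distance.

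Weak solitary sites occurred on all 29 autosomes, from 11 on chromosome 28 to 47 on chromosome 7. Their density was 0.292 per Mb over all autosomes, lowest on chromosome 9 (0.151) and highest on chromosome 19 (0.562), a span of 3.71 times. Shared H3K4me3 sites of all kinds spanned 4.20 times and strong solitary sites 5.78 times. Density followed that of all shared sites across the autosomes (Pearson r = 0.809, Spearman rho = 0.784, n = 29, chromosomes of the same libraries). For strong solitary sites these values were 0.908 and 0.915. As a share of the shared sites, the weak solitary sites were fewer on the autosomes rich in H3K4me3 (r = -0.48, rho = -0.43), and the rule itself asks for isolation. As a share of the solitary sites without H3K27me3 the relation was weaker (r = -0.37, rho = -0.29). Of the shared sites, they made up 2.69% on chromosome 18 (interval 1.90% to 3.79%), 2.78% on chromosome 23 and 2.89% on chromosome 25. On chromosomes 24, 27 and 20 they made up 7.23% (4.87% to 10.6%), 6.64% (4.19% to 10.4%) and 6.0% (3.83% to 9.28%) of the shared sites.

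**Figure D4:**
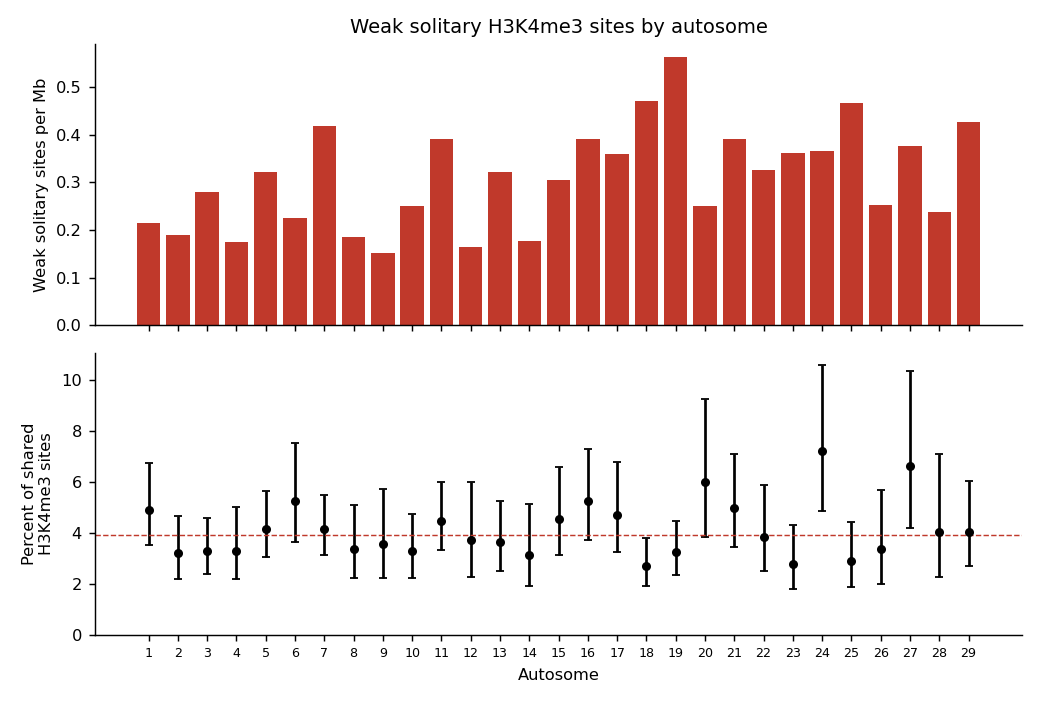
Weak solitary H3K4me3 sites per Mb on each autosome (top) and as a percent of the H3K4me3 sites shared by the lines there, with 95% Wilson intervals (bottom); the dashed line marks 3.92%, the share over all autosomes. Density is highest on chromosome 19 at 0.562 per Mb, while the percent is highest on chromosome 24 at 7.23%.

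Along the chromosomes the sites gathered toward the end of the sequence, as the shared H3K4me3 sites of all kinds also did. Each chromosome, up to the last summit called on it, was divided into 10 bins of equal length. The last bin held 140 of the 733 sites (19.1%, interval 16.4% to 22.1%) and the one before it 101 (13.8%). Each of the other 8 bins held 54 to 66. All solitary sites without H3K27me3 had 13.6% in the last bin, strong ones 14.9% (13.6% to 16.2%), and all shared H3K4me3 sites 16.0% (15.5% to 16.6%). In the last bin the interval of the weak sites lay just above that of the strong ones and overlapped that of all shared sites. The bin before it held 13.3% of all solitary, 13.8% of strong and 13.7% of all shared sites, so the weak sites were at the background there.

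Of 2529 windows of 1 Mb, 588 held a weak solitary site, 472 of them exactly 1, and 22 held 3 or more. The median gap between neighbouring weak solitary sites was 1499 kb, and 75 of 733 (10.2%) had another within 100 kb. With 733 sites over 2529 windows, wide spacing follows from the number of sites. No other group was counted in this way, so these values describe the sites and show neither scatter nor clustering. Only 3 windows held 5. The window at 103 to 104 Mb of chromosome 3 held 5 weak solitary sites among 19 H3K4me3 summits in each line and 1 H3K27me3 summit in each. The site at 103465724 had that at 103443249 as its nearest H3K4me3 summit, while the latter had a stronger summit still nearer. The site at 103443249 scored 6.80 and 6.91 and that at 103465724 6.43 and 8.38 in lines A and B. The site at 103851631 had the highest mean percentile of the window, with scores of 10.7 and 20.2. The sites at 103049338 (10.9 and 8.46) and 103932818 (6.43 and 19.1) ranked differently in the lines. None of the 5 had an H3K27me3 summit nearer than 148 kb.

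The other windows with 5 sites were richer in both marks. At 5 to 6 Mb of chromosome 7 lines A and B had 49 and 56 H3K4me3 summits, and of H3K27me3 23 and 10. Its site at 5590445 scored 14.6 and 18.3 and had H3K27me3 7.12 and 7.26 kb away, while that at 5452114 scored 2.77 and 11.2 and had H3K27me3 52.1 and 64.6 kb away. At 42 to 43 Mb of chromosome 29 there were 21 and 23 H3K4me3 summits and 13 and 6 H3K27me3 summits. Its sites at 42951039 (6.02 and 8.32) and 42960800 (14.0 and 18.7) lay 9.76 kb apart in line A and were each other's nearest H3K4me3 summit in both lines. The site with the strongest neighbour there, at 42993620, scored 5.34 and 11.1, and the nearest other summit scored 96.1 and 153.

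**Figure D5:**
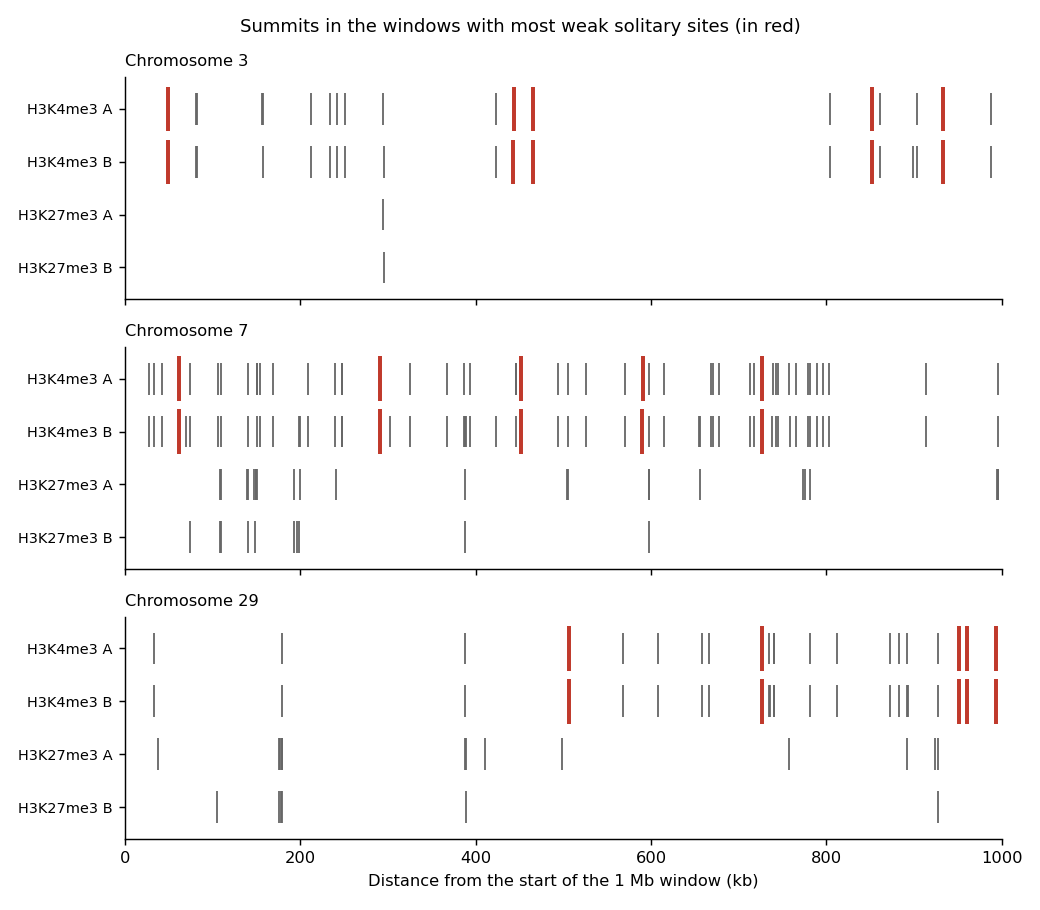
Summits of H3K4me3 and H3K27me3 in lines A and B in the 3 windows of 1 Mb with most weak solitary sites, by distance in kb from the start of the window; weak solitary sites are tall red lines and other summits grey. Each window holds 5 such sites, and the chromosome 7 window is the densest, with 49 and 56 H3K4me3 summits.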

How the data were processed

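Chromatin of bovine embryonic stem cell lines A and B was made with a micro-ChIP kit, per the labels' protocols. The submitters' processing notes name BWA, MACS2 and the UMD3.1 assembly. Versions, cut-offs and the use of the 2 input libraries, which were not analysed here, are not given in the sources used. For each library 1 deposited list gives 1-base summits (positions, counted here from 1) with a score read as −log10 of a p or q value, since its smallest value lies just above 2. A score moves with depth, which is unknown, so scores were ranked within a list only. Versions used were matplotlib 3.10.9, statsmodels 0.14.6, scipy 1.17.1, numpy 2.4.6, pandas 2.3.3 and Python 3.11.15. On simulated lists the rule found 400 of 400 planted sites and 0 of 2800 that broke 1 condition. The sites, comparison groups and named sites (extremes of score, isolation and distance to H3K27me3, and the densest windows) were chosen with earlier results of these data known. Alternatives varied each limit of the rule, the anchoring line and the lines used. No test over sites was run.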

Additional observations from a re-analysis of the deposited data

Results flagged for a closer look

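Sites outside the autosomes were not part of the rule and were judged with the autosomal score cut-offs, without a control list. On the X chromosome 24 sites met the other conditions, 3.16% of 760 shared H3K4me3 sites (Wilson interval 2.13% to 4.66%). They had median scores of 6.82 and 11.5 in lines A and B and a median distance between the lines of 82 bases. An H3K27me3 summit lay within 50 kb of 83.3% of them in line A and 79.2% in line B. Of 105 weak solitary sites of the X, 81 (77.1%) had H3K27me3 within 5 kb. No such share over all H3K4me3 sites of the X is set beside these, and whether they are particular to weak sites was not tested. On unplaced sequences 4 sites met the rule, of 40 shared ones, on 4 sequences.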

How the results depend on the processing

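Of 58 alternatives, 36 stayed within 1.5 times of the count, the interval of the median or 1 SD between lines (n = 2), and 22 moved further; there was no call to lose. With the 10th percentile as cut-off there were 111 sites, a distance between lines of 86 bases, H3K4me3 within 50 kb of 63.5% and H3K27me3 within 50 kb of 26.6% (mean of the lines), and a nearest H3K4me3 summit at 31.3 kb. With the 50th percentile these were 2364 sites, 61 bases, 67.8% for H3K4me3 and 26.8 kb. The main means were 65.0%, 32.3% and 28.4 kb. With no other H3K4me3 summit within 2 kb the values were 70.7% and 22.0 kb, and within 10 kb 56.7%, 27.3% for H3K27me3 and 42.4 kb, as the limit itself sets the nearest distance. With no H3K27me3 within 10 kb they were 62.1%, 26.5% and 32.9 kb. With 1 line alone the sites numbered 1527 to 1992, with H3K4me3 within 50 kb of 63.9% to 67.6%, H3K27me3 within 50 kb of 31.3% to 35.4% and the nearest H3K4me3 summit at 27.3 to 30.5 kb. These leave out the partner and the other line's limits on isolation and H3K27me3. Anchoring on line B gave the same values. The unknown depth limits which weak sites were called at all.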
